A study of Danio rerio with 16 samples.

Results

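The cytosolic ribosome is assembled from ribosomal RNA and a set of ribosomal proteins, which the gene symbols divide into large subunit (rpl), small subunit (rps) and stalk (rplp) proteins. Their transcripts were described here across 16 RNA sequencing libraries of whole zebrafish embryos. Members were the symbols that begin with rpl or rps and a digit, or with rplp and a digit, leaving out the S6 kinases (rps6k), with at least 1 CPM (counts scaled to a fixed total per library) in at least 4 libraries. All 83 symbols with such a name met the CPM minimum, out of 36109 symbols in the table. By symbol, 43 belong to the large subunit, 34 to the small subunit and 4 to the stalk. The other 2, rpl7l1 and rps19bp1, carry the name but are not proteins of the mature ribosome. Another 4 ribosomal protein or ribosome-bound symbols named otherwise (rpsa, faua, faub and rack1) are given beside them.

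Ribosomal proteins are made in step with each other and with ribosomal RNA, joined into subunits in the nucleolus and exported to the cytoplasm, where the large subunit forms the peptide bond and the small subunit reads the mRNA. Their mRNAs are among the most abundant of growing cells. In vertebrates most of them start with a run of pyrimidines through which their translation responds to the mTORC1 kinase, which senses nutrients. Some of the proteins, such as Rpl5 and Rpl11, also bind Mdm2 when ribosome assembly is disturbed, which links the ribosome to p53.

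The tested embryos carried CRISPR/Cas9-mediated knockouts of both hnf4a and hnf4b, which encode nuclear receptors active in liver, in gut and in the yolk syncytial layer, where yolk lipid is packaged into lipoproteins. They were compared with embryos labelled sib, untreated, whose genotype the labels do not give further. Each genotype was sampled at 34 and at 48 hours post-fertilisation (hpf), with 4 libraries per group. By its title, the study asks how yolk lipid reaches the embryo and supports its growth once segmentation has ended. The labels do not say whether replicates were separate clutches or pools, so a p-value here reflects only the spread among these libraries, which may be technical. The labels also name the stage as the batch, so that stage and batch cannot be told apart.

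Total counts were 34588058 to 41000857 in 34 hpf knockouts, 35586032 to 42407778 in 34 hpf siblings, 40677285 to 43194625 in 48 hpf knockouts and 36186542 to 38101069 in 48 hpf siblings. The genotypes could not be told from transcripts of the 2 targeted genes. At 34 hpf the log2 fold change of hnf4a was -0.08 ± 0.27 (SE) and that of hnf4b -0.91 ± 0.48, with adjusted p = 0.897 and 0.269 by edgeR's quasi-likelihood test with Benjamini-Hochberg adjustment. At 48 hpf they were -0.15 ± 0.27 and -0.83 ± 0.49, with adjusted p = 0.789 and 0.329 by that test. Transcripts of the targeted genes thus give no direct check of the labels. Of 8 listed markers of the yolk syncytial layer and liver, all detected, 7 were tested. Of these 7, 6 were called lower in knockouts at 34 hpf and 7 at 48 hpf. Of all genes tested, 5.21% and 5.28% were called lower.

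One group was much less uniform than the others. The median coefficient of variation of the 83 symbols was 21.7% in 34 hpf knockouts, against 3.94% in 34 hpf siblings, and 4.40% in 48 hpf knockouts, against 7.11% in 48 hpf siblings. Replicate 4 of the 34 hpf knockouts was the highest of its group for 74 of the 83 symbols, and replicate 1 the lowest for 72. Their TMM scaling factors, 0.892 and 1.06, were also the extremes of the group. Several counts and calls at 34 hpf are therefore also given without one of these libraries. Each test drew its error from the spread of all 4 groups. Errors and p-values can thus be too small in comparisons with the 34 hpf knockouts, and too large in comparisons without them.

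Ribosomal protein transcripts took a larger share of all counts in knockouts than in siblings at both stages. At 34 hpf the share was 6.82%, 7.22%, 7.85% and 8.77% in knockouts, against 6.53%, 6.19%, 6.51% and 6.32% in siblings. At 48 hpf it was 6.63%, 6.63%, 6.74% and 6.69% in knockouts, against 5.0%, 5.37%, 4.96% and 5.31% in siblings. Every knockout library lay above every sibling library of its stage, and the margin was narrower at 34 hpf. The mean shares were 7.66% ± 0.851 in 34 hpf knockouts and 6.39% ± 0.163 in 34 hpf siblings, and 6.67% ± 0.0507 in 48 hpf knockouts and 5.16% ± 0.21 in 48 hpf siblings (SD, n = 4 each). The 34 hpf knockouts averaged 7.95% without replicate 1 and 7.30% without replicate 4. In whole embryos, fewer cells of a type and less RNA per cell cannot be told apart, and a share also moves with all other transcripts.

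The group means kept this order within each part of the ribosome. Large subunit transcripts took 3.72% ± 0.028 of counts in 48 hpf knockouts and 2.88% ± 0.116 in 48 hpf siblings. Small subunit transcripts took 2.57% ± 0.0229 in 48 hpf knockouts and 2.0% ± 0.0856 in 48 hpf siblings. The stalk symbols, whose proteins recruit elongation factors to the ribosome, took 0.377% ± 0.0166 in 48 hpf knockouts and 0.264% ± 0.0159 in 48 hpf siblings. At 34 hpf the stalk share was 0.357%, 0.425%, 0.52% and 0.565% in knockouts, against 0.358%, 0.33%, 0.348% and 0.339% in siblings, so that replicate 1 of the knockouts lay among the siblings. After TMM scaling the groups also overlapped at 34 hpf for the median symbol, with a median log2 CPM of 9.33, 9.47, 9.65 and 10.04 in knockouts, against 9.46, 9.28, 9.37 and 9.33 in siblings.

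**Figure D1:**
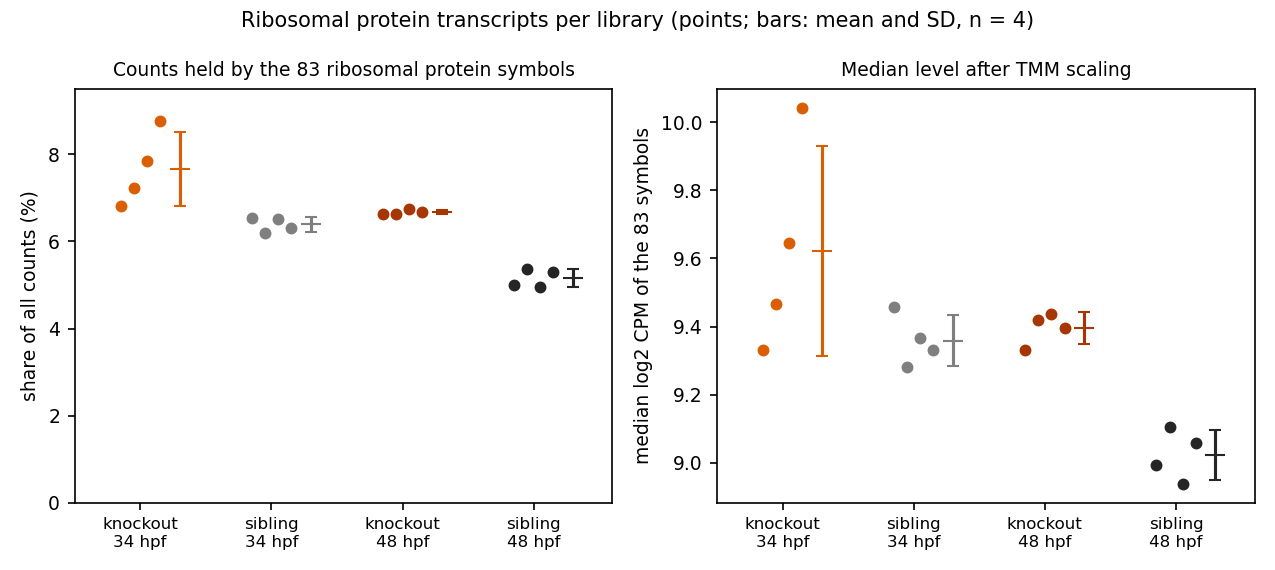
Share of all counts held by the 83 ribosomal protein symbols (left, in percent) and their median level after TMM scaling (right, in log2 CPM, axis not starting at 0), with a point per library and the mean and SD of 4 libraries per group. By share, knockouts lie above siblings at both stages, and by median level they do so at 48 hpf, while at 34 hpf the groups overlap.

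At 48 hpf, transcripts of both subunits and of the stalk were called higher in knockouts. Of the 83 symbols, 25 were called higher at an adjusted p below 0.05 (30.1%) and 0 lower, where 4.76% of all 24084 genes tested were called higher and 5.28% lower. The median log2 fold change of the 83 was 0.33, a fold of 1.25, against 0.00 for all genes tested. It lay above 0 for 78 symbols, against 50.1% of all genes. In either direction 55 symbols, or 66.3%, had an unadjusted p below 0.05, against 23.8% of all genes. DESeq2 called 33 higher and 0 lower, against 6.01% and 7.01% of all genes. The 4 knockout libraries all lay above the 4 sibling libraries for 66 symbols, against 8.49% of all genes. The change was small for each gene and similar across genes, since the middle 50% of the symbols lay between 0.24 and 0.38 on the log2 scale.

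Of the large subunit symbols, 16 were called higher at 48 hpf. rpl4 stood at 1814, 1854, 1946 and 1807 CPM in 48 hpf knockouts, against 1415, 1525, 1433 and 1528 CPM in 48 hpf siblings. Its log2 fold change was 0.33 ± 0.07 (SE), with adjusted p = 0.00433 in edgeR, and the groups did not overlap. rpl7a stood at 3156, 2949, 3097 and 3047 CPM in the knockouts, against 2029, 2461, 2367 and 2486 CPM in the siblings. rpl12 stood at 1233, 1051, 1159 and 1081 CPM in the knockouts, against 879, 896, 833 and 901 CPM in the siblings. Rpl12 sits at the base of the stalk, and both genes were higher in every knockout library, with log2 fold changes of 0.39 ± 0.08 and 0.37 ± 0.08 and adjusted p = 0.0047 and 0.00578 in edgeR. rpl8 stood at 1360.000, 1377, 1489.6 and 1447 CPM in the knockouts, against 1073, 1112, 1035 and 1091 CPM in the siblings. Rpl8 reaches towards the peptidyl transferase centre, and its transcript changed by 0.40 ± 0.09 on the log2 scale (adjusted p = 0.00684 in edgeR).

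The estimated changes of rpl15 and rpl3 were larger, with larger errors. Errors and p-values come from a fit of all 16 libraries, so they also hold the spread at 34 hpf. The coefficient of variation of rpl3 was 24.1% in 34 hpf knockouts, against 2.32% and 6.14% in 48 hpf knockouts and siblings. For rpl15 it was 21.2%, against 11.3% and 7.82%. rpl15 stood at 685, 779.7, 895 and 844 CPM in 48 hpf knockouts, against 619.8, 571, 513 and 554 CPM in 48 hpf siblings, and the groups did not overlap. Its log2 fold change was 0.50 ± 0.13, adjusted p = 0.0231 in edgeR, but 0.055 with same-numbered libraries as a block. rpl3 stood at 2699.6, 2833, 2839 and 2779 CPM in the knockouts, against 1926, 2150.2, 2013 and 2205 CPM in the siblings. Rpl3 also lies near the catalytic centre, and rpl3 changed by 0.43 ± 0.12 with adjusted p = 0.0293 in edgeR, again without overlap. The genes of Rpl5 and Rpl11, the Mdm2-binding proteins introduced above, were called, with log2 fold changes of 0.28 ± 0.08 for rpl5a, 0.41 ± 0.10 for rpl5b and 0.33 ± 0.10 for rpl11 and adjusted p = 0.0384, 0.011 and 0.0488 in edgeR. With the replicate block rpl5a and rpl11 lost the call, at adjusted p = 0.0608 and 0.0606, and rpl11 also lost it without any 1 of the 8 libraries.

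Of the small subunit symbols, 8 were called higher at 48 hpf. rps12 stood at 451, 445, 478 and 471 CPM in 48 hpf knockouts, against 312, 359, 335 and 354 CPM in 48 hpf siblings. This was the smallest adjusted p of the 83 symbols, 0.00204 in edgeR, with a log2 fold change of 0.44 ± 0.08 and no overlap. rps6 stood at 1015, 1061, 1148 and 1106 CPM in the knockouts, against 803, 854, 787 and 838 CPM in the siblings. Rps6 is the protein that S6 kinases phosphorylate downstream of mTORC1, and its transcript changed by 0.40 ± 0.08 (adjusted p = 0.00316 in edgeR) with every knockout library above every sibling library. The others called were rps3a, rps14, rps16, rps26l, rps27.1 and rps27l, with log2 fold changes of 0.37 ± 0.08, 0.35 ± 0.09, 0.33 ± 0.10, 0.27 ± 0.07, 0.35 ± 0.10 and 0.54 ± 0.15. With the replicate block rps26l had adjusted p = 0.0599.

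Among the 4 stalk symbols, rplp0 was called. rplp0 stood at 2338, 2146, 2438 and 2385 CPM in 48 hpf knockouts, against 1683, 1633, 1475 and 1742 CPM in 48 hpf siblings. Rplp0 anchors the stalk, and its log2 fold change was 0.51 ± 0.12 (adjusted p = 0.012 in edgeR), with all knockout libraries higher. The dimer partners rplp1, rplp2 and rplp2l had log2 fold changes of 0.46 ± 0.17, 0.37 ± 0.18 and 0.41 ± 0.23 and adjusted p = 0.107, 0.231 and 0.309 in edgeR. For each of these 3 the groups did not overlap, although the test did not pass. The test also took in the spread at 34 hpf. Their coefficients of variation were 39.5%, 37.3% and 51.7% in 34 hpf knockouts. In 48 hpf knockouts they were 6.07%, 6.90% and 8.16%, and in 48 hpf siblings 4.16%, 15.1% and 10.5%. rpl35 was among the symbols with the least difference. rpl35 stood at 787, 763, 727 and 756 CPM in 48 hpf knockouts, against 663, 752, 673 and 704 CPM in 48 hpf siblings. These groups overlapped, with a log2 fold change of 0.12 ± 0.08 (adjusted p = 0.382 in edgeR).

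The count of called symbols at 48 hpf moved with the libraries and the fit. It was 9, 18, 13 and 17 without replicates 1, 2, 3 and 4 of the 48 hpf siblings and 15, 16, 15 and 15 without those of the knockouts. The share of all genes called higher also fell from 4.76%. It was 2.88%, 2.78%, 2.95% and 3.44% without these sibling libraries and 3.26%, 4.48%, 3.62% and 3.61% without these knockout libraries. Called in each of these fits and in the 9 other settings tried were rpl12, rpl4, rpl7a, rpl8, rplp0, rps12 and rps6. With only the 8 compared libraries in the fit 60 of the 83 were called higher, against 5.92% of all genes, and with plain library totals 48, against 5.51%.

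**Figure D2:**
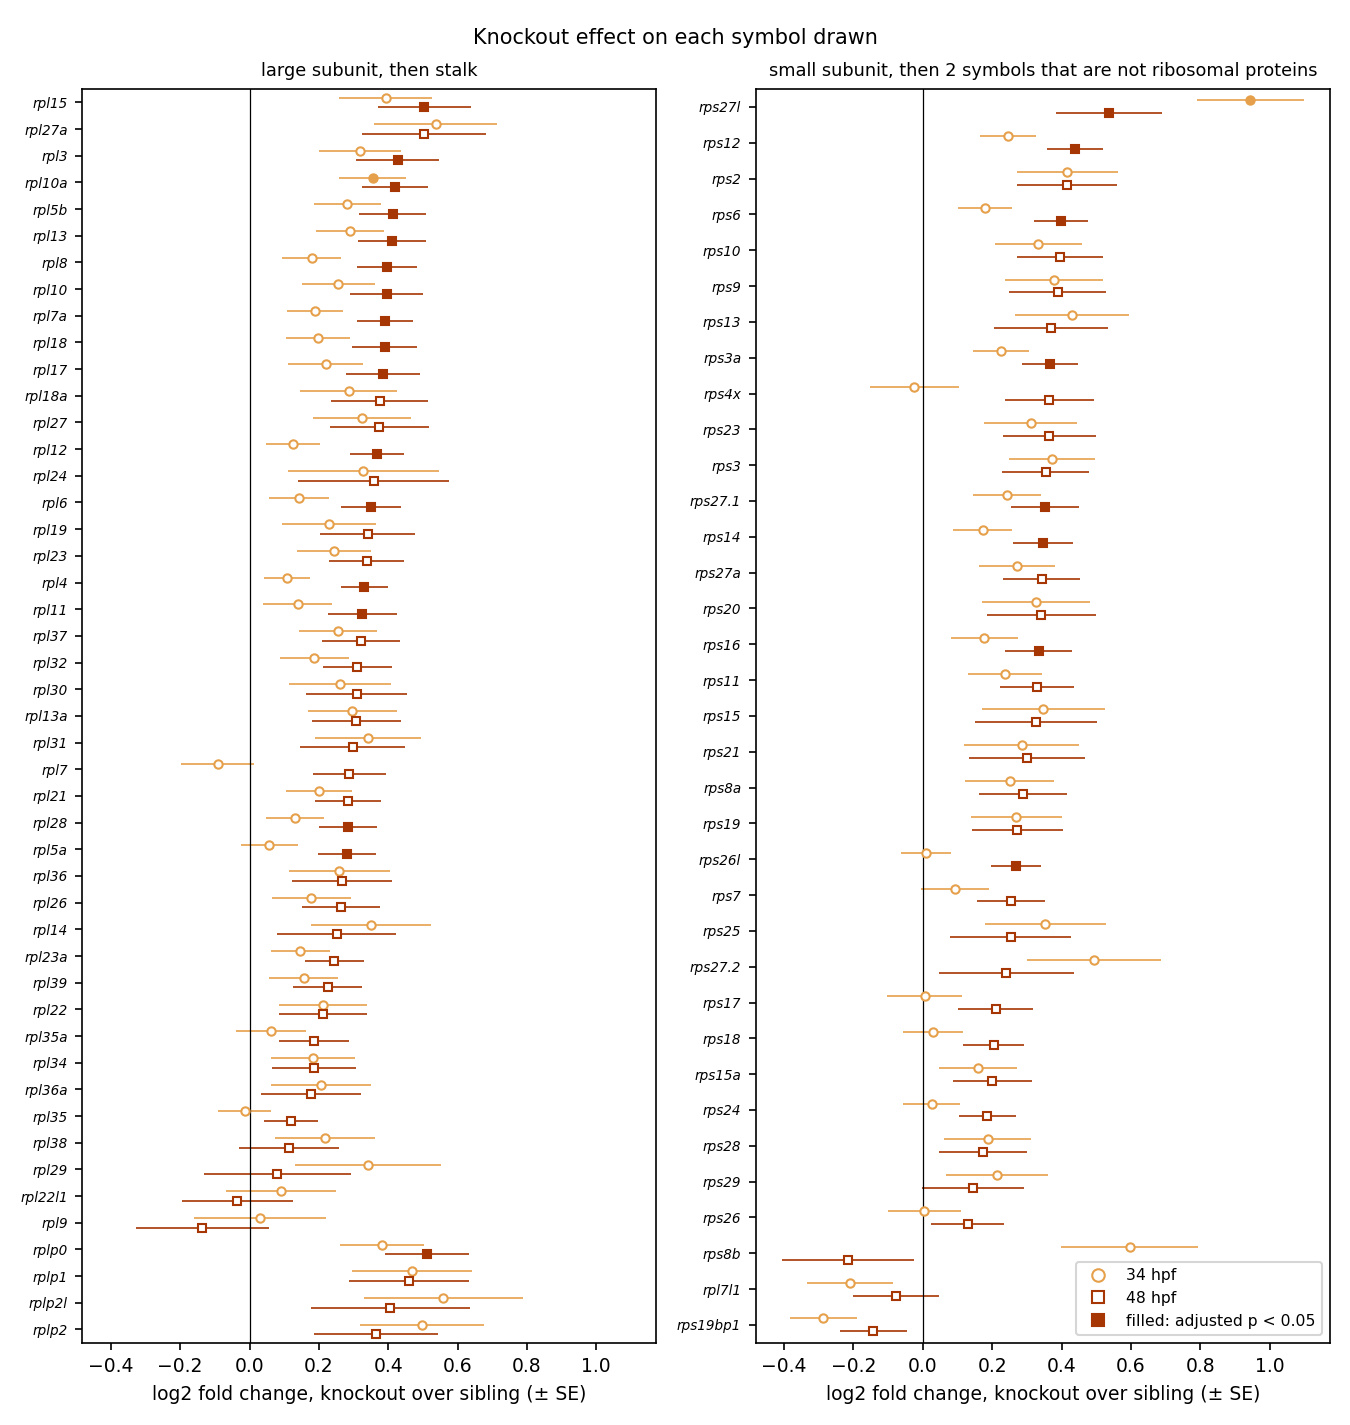
Log2 fold change of knockouts over siblings with its SE for 82 of the 83 symbols, ordered by the 48 hpf value within each class, with circles for 34 hpf, squares for 48 hpf and filled marks at an adjusted p below 0.05. Most values lie to the right of 0 at both stages, with 25 filled marks at 48 hpf and 2 at 34 hpf.

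At 34 hpf, 2 of the 83 symbols were called higher in knockouts (2.41%) and 0 lower, where 4.09% of all genes tested were called higher and 5.21% lower, so the share called was not above the background. The median log2 fold change was 0.24, against 0.01 for all genes tested, and 78 symbols lay above 0, against 51.7% of all genes. An unadjusted p below 0.05 was reached by 35 symbols, or 42.2%, against 23.3% of all genes. The groups lay apart for 3 symbols with knockouts higher (background 6.93%) and for 1, rps19bp1, with knockouts lower (background 7.23%). By CPM from plain library totals, without TMM factors, 36 lay apart with knockouts higher, against 8.49% of all genes.

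rps27l stood at 28.7, 40.3, 40.7 and 47.5 CPM in 34 hpf knockouts, against 22, 18, 17.9 and 23.8 CPM in 34 hpf siblings. This paralog of rps27, a p53 target in mammals, showed the largest change of the 83 at this stage, a log2 fold change of 0.94 ± 0.15 with adjusted p = 0.00087 in edgeR, and the groups did not overlap. rpl10a stood at 1516, 1619.7, 1636 and 2115 CPM in the knockouts, against 1392, 1359, 1339 and 1296 CPM in the siblings. Every knockout library was higher here too, with a log2 fold change of 0.35 ± 0.10 and adjusted p = 0.0264 in edgeR. At 48 hpf rps27l stood at 26.8, 41.4, 31.3 and 36.3 CPM in knockouts, against 21.5, 24.2, 25.9 and 22 CPM in siblings, and rpl10a at 1331, 1478, 1308 and 1245 CPM, against 919, 1069.9, 1028 and 989.98 CPM. Both were called at that stage as well, with log2 fold changes of 0.54 ± 0.15 and 0.42 ± 0.10 and adjusted p = 0.0331 and 0.00925 in edgeR.

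All 25 symbols called at 48 hpf had log2 fold changes above 0 at 34 hpf, with more spread among the knockouts. Of all 83 symbols, called or not, 78 lay above 0 at 34 hpf (94%). rplp0 stood at 2184, 2766, 3619 and 3514 CPM in 34 hpf knockouts, against 2345, 2229, 2343 and 2349 CPM in 34 hpf siblings. The lowest knockout library lay under all siblings and the other 3 above them, and the log2 fold change of 0.38 ± 0.12 had adjusted p = 0.057 in edgeR, and 0.00254 without replicate 1. rps12 stood at 467, 526, 589.5 and 586 CPM in the knockouts, against 456, 439.5, 473 and 459.8 CPM in the siblings. Here the groups overlapped through replicate 1 alone, with a log2 fold change of 0.25 ± 0.08 and adjusted p = 0.0661 in edgeR, and 0.0161 without that library. rps2 stood at 3257, 3673, 4158 and 6292 CPM in the knockouts, against 3196, 3261, 3385 and 3183 CPM in the siblings. Replicate 4 of the knockouts held the highest value of rps2, which lies at the mRNA entry of the small subunit, and rps2 was called without replicate 1 (adjusted p = 0.0237 in edgeR).

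The counts at this stage moved with single libraries and with the scaling. Without replicate 1 of the knockouts, 26 symbols were called higher, against 4.24% of all genes, and the median log2 fold change was 0.32. Without replicate 4, 2 were called higher and 2, rpl7l1 and rps19bp1, lower, against 5.02% and 8.12% of all genes, and the median was 0.071. Without replicate 2 or 3 of the knockouts 2 and 3 were called higher, against 3.31% and 2.39% of all genes. Without any 1 of the 4 sibling libraries 1 was, with rpl10a lost, against 2.13% to 2.9% of all genes. The gene rps27l was called in each of these fits. With DESeq2 14 were called higher, with upper quartile scaling 12 and with plain library totals 26, against 5.91%, 5.71% and 5.58% of all genes. Across all genes, knockouts held 44.0% of the calls as higher with TMM, 56.1% with upper quartile scaling and 55.3% with plain totals.

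Whether the knockout effect differed between stages was tested as the difference of both effects. None of the 83 symbols was called either way, at a background of 0.0872% higher and 0.116% lower, and 6 had an unadjusted p below 0.05, or 7.23%, against 7.38% of all genes. DESeq2 called 0 as well, where it called 0.332% of all genes higher and 0.403% lower. The median difference was 0.08. The widest difference was that of rps8b at -0.81 ± 0.27 (adjusted p = 0.389 in edgeR). For rpl7 and rps4x it was 0.38 ± 0.15 and 0.39 ± 0.18, with adjusted p = 0.534 and 0.662. For rpl7 and rps4x, replicate 4 of the 34 hpf knockouts was low rather than high. rpl7 stood at 1452, 1503, 1591 and 1037 CPM in 34 hpf knockouts, against 1491, 1478, 1527 and 1453 CPM in 34 hpf siblings. rps4x stood at 1134, 1219, 1423 and 775 CPM in the knockouts, against 1211, 1129, 1166 and 1123 CPM in the siblings. Replicate 4 was the lowest of the 8 libraries for both genes.

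In siblings, most ribosomal protein transcripts were lower at 48 than at 34 hpf. Between the stages, 49 of the 83 symbols were called lower (59.0%) and 1 higher, where 15.7% of all genes were called lower and 18.3% higher. The median log2 fold change was -0.36, against -0.03 for all genes. The stages did not overlap for 69 symbols with 48 hpf lower, against 19.9% of all genes. rpl4 stood at 1415, 1525, 1433 and 1528 CPM in 48 hpf siblings, against 2019, 1936, 1975 and 1919 CPM in 34 hpf siblings. Its log2 fold change of -0.41 ± 0.07 had the smallest adjusted p of the falls, 0.000118 in edgeR. rps9 stood at 812, 908, 873 and 919.9 CPM in the 48 hpf siblings, against 1251, 1249, 1315 and 1288 CPM in the 34 hpf siblings. The fall of rps9, -0.54 ± 0.14 with adjusted p = 0.00641 in edgeR, was the widest. Without replicate 1 of the 48 hpf siblings 30 symbols were called lower, against 11.8% of all genes. Of the 49, 29 were called in each of the 8 fits that left out 1 library.

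In knockouts fewer were called. Whether the change with stage differed between genotypes is the same question as the difference of effects tested above. That test called 0 of the 83 symbols, against 0.0872% of all genes higher and 0.116% lower, with a median of 0.08. With stage in knockouts, 26 of the 83 were called lower (31.3%) and 0 higher, where 12.1% of all genes were called lower and 15.5% higher, with a median log2 fold change of -0.26. In either direction 50 had an unadjusted p below 0.05 (37.9% of all genes did). DESeq2 also called 0 higher, where it called 16.4% of all genes higher. The stages lay apart for 13 symbols with 48 hpf lower, against 10.3% of all genes. rps3a stood at 1683, 1704, 1738 and 1658 CPM in 48 hpf knockouts, against 1782, 2049.6, 2190.2 and 2343 CPM in 34 hpf knockouts. rpl10a stood at 1331, 1478, 1308 and 1245 CPM in 48 hpf knockouts, against 1516, 1619.7, 1636 and 2115 CPM in 34 hpf knockouts. These did not overlap, with log2 fold changes of -0.30 ± 0.08 and -0.36 ± 0.10 and adjusted p = 0.00956 and 0.00903 in edgeR. The count was 53 without replicate 1 of the 34 hpf knockouts, 26 without replicate 2 and 11 without replicate 3 or 4. It was 6, 12, 15 and 11 without replicates 1, 2, 3 and 4 of the 48 hpf knockouts, 0 with only the compared libraries in the fit and 42 with DESeq2, where 7.4% and 14.6% of all genes were called lower. Without replicates 1, 2, 3 and 4 of the 34 hpf knockouts, 13%, 10.9%, 10.5% and 11.2% of all genes were called lower. Without those of the 48 hpf knockouts, 9.18%, 10%, 10.3% and 10.5% were. The genes rpl10a, rps14, rps3a and rps9 were called in each of the 8 fits that left out 1 library.

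As a description with no test, the 48 hpf knockouts stood near the 34 hpf siblings. Their mean lay nearer to the mean of the 34 hpf siblings for 74 symbols and nearer to that of the 48 hpf siblings for 9, where 33.8% of all genes tested lay nearer to the 34 hpf siblings. The ratio of both means had a median of 0.971 over the 83, with a lowest ratio of 0.655 and a highest of 1.97. The 4 libraries of each group overlapped for 66 symbols, the 48 hpf knockouts were all lower for 14 and all higher for 3, rplp2, rps27l and rps8b. Of all genes tested 61.5% overlapped, 18.9% were all lower and 19.7% all higher.

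**Figure D3:**
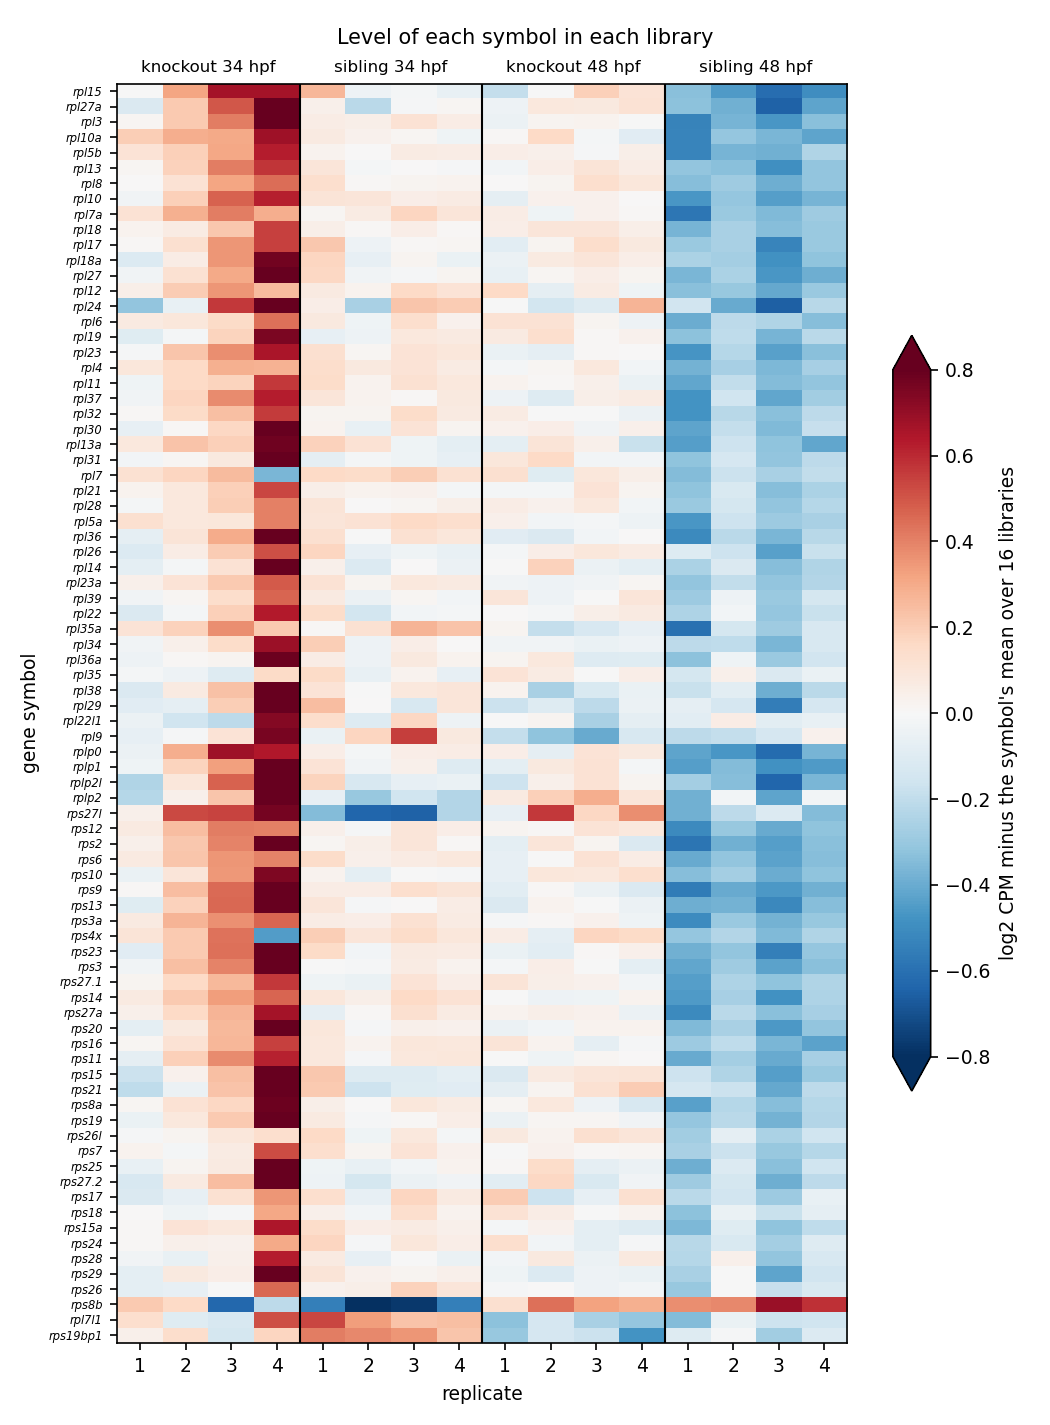
Level of 82 of the 83 symbols in each of the 16 libraries as log2 CPM minus the symbol's mean over the libraries, with colours that stop at 0.8 either way, so that values beyond take the end colour. Replicate 4 of the 34 hpf knockouts is the darkest red column, the 48 hpf siblings are blue for most symbols, and rps8b runs the other way with stage.

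Pairs of symbols that share a stem did not always move together. rps8b had few reads beside rps8a, with 49 to 152 counts per library. rps8b stood at 3.16, 3.18, 3.93 and 3.66 CPM in 48 hpf siblings, against 1.67, 1.33, 1.43 and 1.67 CPM in 34 hpf siblings. It was the 1 symbol called higher with age in siblings, by 1.19 ± 0.20 on the log2 scale (adjusted p = 0.000143 in edgeR). Its partner rps8a stood at 582, 673, 622 and 673 CPM in the 48 hpf siblings, against 812, 789, 839 and 824 CPM in the 34 hpf siblings. rps8a was called lower, at -0.36 ± 0.13 (adjusted p = 0.0398 in edgeR). Of the reads of this pair rps8b held 0.384% ± 0.034 in 48 hpf knockouts and 0.545% ± 0.0645 in 48 hpf siblings (SD, n = 4 each).

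The rps27 symbols rps27.1, rps27.2 and rps27l also differed. rps27l held 3.51%, 4.4%, 4.12% and 3.53% of the counts of the 3 in 34 hpf knockouts, against 2.75%, 2.33%, 2.08% and 2.83% in 34 hpf siblings, without overlap. At 48 hpf it held 4.02% ± 0.721 in knockouts and 3.51% ± 0.33 in siblings, and the libraries overlapped. For rpl5a and rpl5b, rpl5b held 48.6%, 50.7%, 52.7% and 52.8% in 34 hpf knockouts, against 47.8%, 47%, 47.3% and 47.6% in 34 hpf siblings. All knockout libraries were above the siblings, and at 48 hpf rpl5b held 49.7% ± 0.644 in knockouts and 47.4% ± 1.58 in siblings, with overlap. For rps26 and rps26l the shares overlapped at 34 hpf. For rpl22 and rpl22l1 they overlapped at 34 hpf as well. At 48 hpf rpl22l1 held 31.2% to 36.6% of the pair in knockouts, against 37.3% to 39.6% in siblings, without overlap. No test was made on these shares. Whether reads of near-identical copies were split or dropped is not given in the sources used here, so values of single paralogs are uncertain, as are those of overlapping or antisense genes.

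Both symbols that are not ribosomal proteins had log2 fold changes below 0 at both stages. At each stage 2 large subunit symbols and 1 small subunit symbol also lay below 0. At 48 hpf the mean was lower in knockouts than in siblings for rpl22l1 (154 against 158 CPM), rpl9 (3.06 against 3.36 CPM) and rps8b (3.00 against 3.48 CPM). rps19bp1 stood at 25.5, 27.4, 22.5 and 28 CPM in 34 hpf knockouts, against 33, 32.4, 31.8 and 29 CPM in 34 hpf siblings. All knockout libraries were lower, but the log2 fold change of -0.29 ± 0.10 had adjusted p = 0.0741 in edgeR, and 0.0396 without replicate 4 of the knockouts. rpl7l1 stood at 40.5, 34.6, 33.8 and 52.9 CPM in the knockouts, against 53.5, 46.7, 43.3 and 43.7 CPM in the siblings. These overlapped, with a log2 fold change of -0.21 ± 0.12 and adjusted p = 0.333 in edgeR, and 0.0194 without that library. At 48 hpf the values were -0.14 ± 0.10 and -0.08 ± 0.12, and between 48 and 34 hpf in siblings both were called lower, at -0.47 ± 0.10 and -0.52 ± 0.12. rpl9 was also low, with 116 to 226 counts per library, and stood at 3.2, 2.92, 2.76 and 3.35 CPM in 48 hpf knockouts, against 3.16, 3.21, 3.33 and 3.74 CPM in 48 hpf siblings. CPM are not divided by transcript length, so levels of different genes are not compared.

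**Figure D4:**
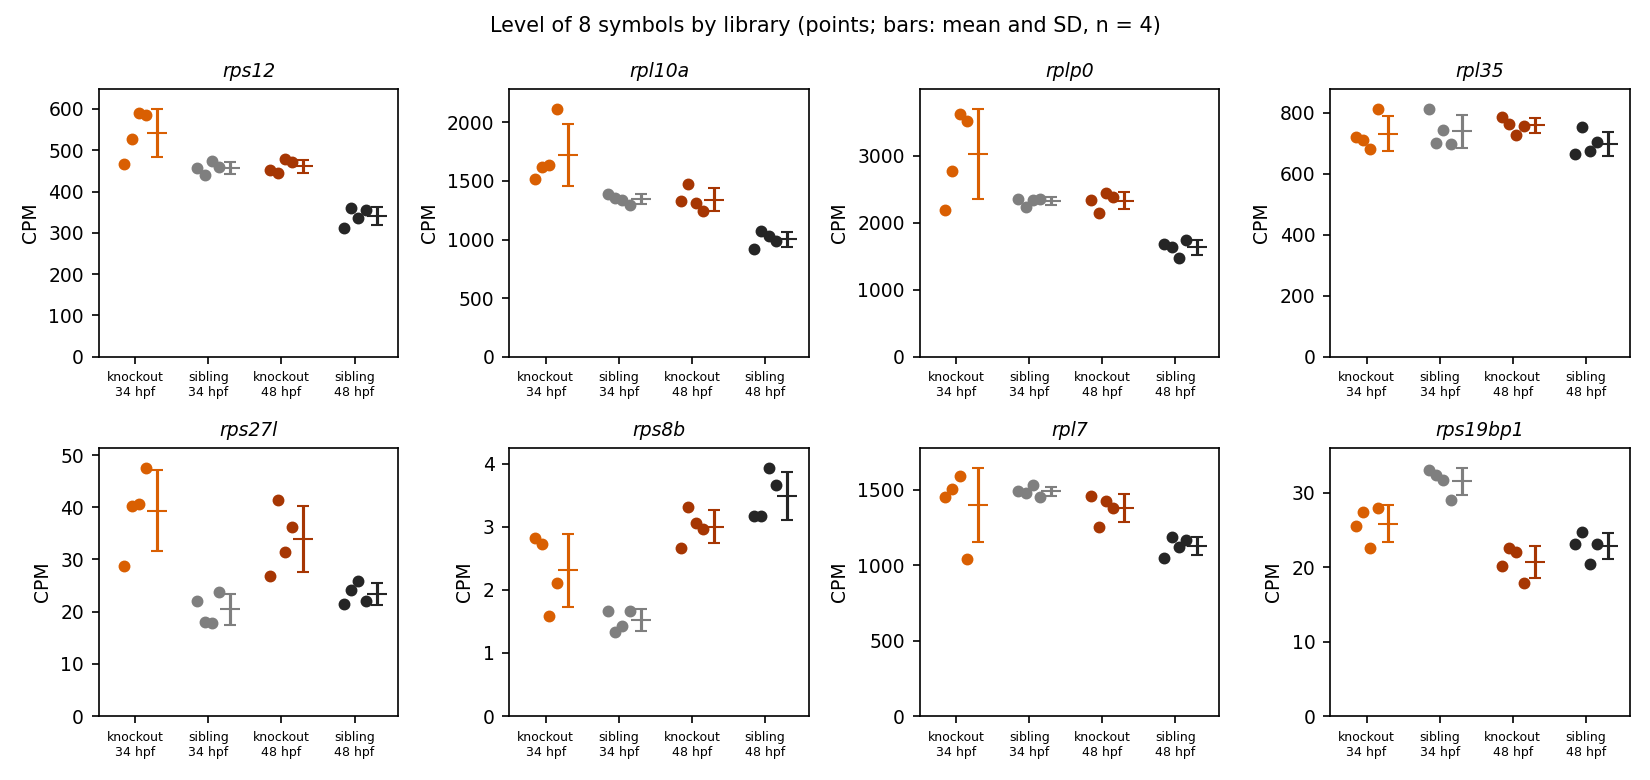
Level in CPM, from 0, of 8 symbols by library, with the mean and SD of 4 libraries per group. rps12, rpl10a and rplp0 are higher in knockouts at 48 hpf, rpl35 overlaps, rps27l is higher in knockouts at both stages, rps8b has its lowest mean in 34 hpf siblings, rpl7 has 1 low library among the 34 hpf knockouts, and rps19bp1 is lower in 34 hpf knockouts.

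Of the 4 symbols named outside the pattern, rack1, the scaffold on the head of the small subunit, was called higher in knockouts at both stages. rack1 stood at 1854, 1935, 2140.3 and 1994 CPM in 48 hpf knockouts, against 1342, 1431, 1345 and 1475 CPM in 48 hpf siblings. Its log2 fold change was 0.50 ± 0.11 at 48 hpf and 0.40 ± 0.11 at 34 hpf, with adjusted p = 0.00617 and 0.0266 in edgeR. At 34 hpf it lost the call without replicate 3 of the knockouts or any 1 of the siblings, and had adjusted p = 0.00105 without replicate 1 and 0.0446 without replicate 4 of the knockouts. The small subunit protein rpsa had 0.50 ± 0.16 and 0.48 ± 0.16 with adjusted p = 0.0519 and 0.0669, and with the replicate block rpsa was called at 48 hpf (adjusted p = 0.0433), as it was at 34 hpf without replicate 1 of the knockouts (adjusted p = 0.00971). At 48 hpf faua and faub, which encode a ribosomal protein fused to a ubiquitin-like protein, had 0.36 ± 0.12 and 0.21 ± 0.15 with adjusted p = 0.0761 and 0.458.

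Other genes of translation were read from lists chosen by function, beside the shares of all genes tested, 4.09% called higher and 5.21% lower at 34 hpf and 4.76% higher and 5.28% lower at 48 hpf. Without replicate 1 of the 34 hpf knockouts the 34 hpf shares were 4.24% and 5.17%, and without their replicate 4 they were 5.02% and 8.12%. Of 19 translation elongation factors 5 were called higher (26.3%) and 1 lower (5.26%) at 48 hpf, and 3 higher (15.8%) at 34 hpf, with medians of 0.17 and 0.14. At 34 hpf 5 were higher without replicate 1 of the knockouts, and 2 were lower without replicate 4. The gene eef1a1l1, which encodes the factor that delivers tRNA, changed by 0.60 ± 0.09 at 48 hpf (adjusted p = 0.000324 in edgeR), and eef2b, which encodes the translocation factor, by 0.56 ± 0.11 (adjusted p = 0.00448). Of 42 initiation factors 5 were called higher (11.9%) and 2 lower (4.76%) at 48 hpf, and 2 higher (4.76%) and 7 lower (16.7%) at 34 hpf, with medians of -0.01 and -0.06. With 1 library left out in turn these counts ranged from 1 to 5 higher at 48 hpf, and from 0 to 5 higher and 3 to 14 lower at 34 hpf. The cap-binding gene eif4e1c fell by 0.75 ± 0.10 at 34 hpf (adjusted p = 0.000186 in edgeR) and by 0.47 ± 0.10 at 48 hpf (adjusted p = 0.00718).

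Ribosomal proteins of the mitochondrion are a separate set that translates the mitochondrial genome. Most of the 74 tested were not called. At 34 hpf 10 were called lower in knockouts (13.5%) and at 48 hpf 6 (8.11%), with 0 higher at either stage and medians of -0.26 and -0.25. The 34 hpf count was 3 without replicate 1 of the knockouts, 47 without replicate 4 and 6 with the replicate block, and the 48 hpf count ranged from 2 to 6 with 1 library left out. With the block 5.89% of all genes were called lower at 34 hpf. Examples were mrps31 at -0.50 ± 0.08 and -0.30 ± 0.08 and mrpl43 at -0.57 ± 0.12 and -0.45 ± 0.12 at 34 and 48 hpf. At 48 hpf mrpl43 lost its call with the replicate block (adjusted p = 0.0601), and both lost theirs in some fits that left out 1 library.

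Of 86 ribosome biogenesis genes 2 were called higher (2.33%) and 8 lower (9.3%) at 34 hpf and 5 higher (5.81%) at 48 hpf, with medians of -0.14 and 0.03. With 1 library left out in turn 2 to 26 were lower at 34 hpf, the 26 without replicate 4 of the knockouts, and 3 to 5 higher at 48 hpf. The largest change was that of ddx21, an RNA helicase of the nucleolus, at 1.105 ± 0.097 and 1.199 ± 0.097, with adjusted p = 2.08e-06 and 7.49e-07 in edgeR. The small subunit processome gene utp20 had -0.58 ± 0.12 at 34 hpf. With age 76 of the 86 were called lower in siblings and 67 in knockouts, against 15.7% and 12.1% of all genes. Of 11 RNA polymerase I genes 1, polr1a, was called lower at 34 hpf, at -0.29 ± 0.08, and the call was lost in 5 of the 8 fits that left out 1 library.

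**Figure D5:**
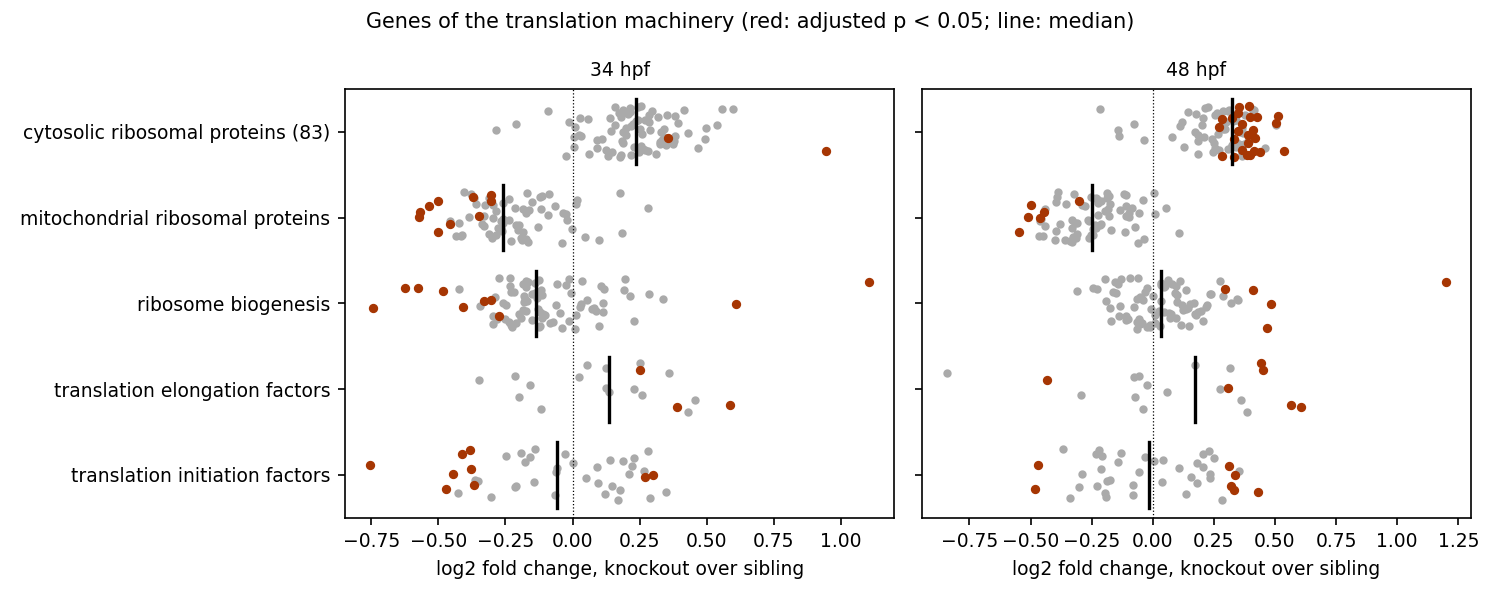
Log2 fold change of knockouts over siblings for each gene of 5 groups, at 34 hpf (left) and 48 hpf (right), with genes at an adjusted p below 0.05 in red and the median of each group as a black line. Cytosolic ribosomal proteins lie mostly above 0 and mitochondrial ribosomal proteins mostly below, and the other groups spread to both sides.

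Genes of the mTORC1 pathway and S6 kinases had 9 of 36 called higher (25%) and 2 lower (5.56%) at 34 hpf and 8 higher (22.2%) at 48 hpf, with medians of 0.15 and 0.09, against 4.09% and 5.21% of all genes at 34 hpf and 4.76% at 48 hpf. The 2 lower became 1 without replicate 3 of the knockouts or replicate 1 or 2 of the siblings. With 1 library left out in turn, 6 to 9 were called higher at 34 hpf and 6 to 7 at 48 hpf. Among those called at both stages were eif4ebp3l and eif4ebp3, whose products hold back cap-dependent translation. Their log2 fold changes at 48 hpf were 1.15 ± 0.11 and 1.13 ± 0.17 (adjusted p = 3.43e-06 and 0.000355 in edgeR). The list also held mycn, a transcription factor gene that is neither an S6 kinase nor a component of mTORC1. It too was called at both stages, at 0.63 ± 0.08 at 48 hpf (adjusted p = 5.23e-05 in edgeR). Of 21 p53 response genes 5 were called higher at 34 hpf (23.8%, against 4.09% of all genes) and 8 at 48 hpf (38.1%, against 4.76%), with medians of 0.19 and 0.21. These included bbc3 and sesn1, at 1.04 ± 0.19 and 0.95 ± 0.20 at 48 hpf, and gadd45ab at 0.80 ± 0.14. In siblings of 48 against 34 hpf, 8 of the 21 were higher and 2 lower, against 18.3% and 15.7% of all genes. With 1 library left out in turn, 4 to 5 p53 response genes were higher in knockouts at 34 hpf and 6 to 8 at 48 hpf. With stage in siblings, 5 to 7 were then higher and 2 to 3 lower.

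Markers of cell types moved with genotype and with stage. Of all genes tested, 4.09% were called higher and 5.21% lower at 34 hpf, and 4.76% and 5.28% at 48 hpf. Without replicate 4 of the 34 hpf knockouts, 8.12% were called lower at 34 hpf. Yolk syncytial layer and liver markers summed to 495 to 1355 CPM in 48 hpf knockouts, against 10474 to 13458 CPM in 48 hpf siblings, and to 1237 to 5189 CPM in 34 hpf knockouts, against 13059 to 17334 CPM in 34 hpf siblings. Hatching gland markers, 3 of 4 called higher at 48 hpf, summed to 448 to 1329.9 CPM in 48 hpf knockouts, against 152 to 356 CPM in 48 hpf siblings. Epidermis markers summed to 19117 to 20666 CPM in 48 hpf knockouts, against 15610 to 17515 CPM in 48 hpf siblings, without overlap, and to 19138 to 25882 CPM in 34 hpf knockouts, against 19062 to 21349 CPM in 34 hpf siblings. Their median log2 fold change at 48 hpf was 0.33, with 1 of 6, krt4, called higher, and that of the ribosomal protein symbols was also 0.33. At 34 hpf these medians were 0.12 and 0.24. Between 48 and 34 hpf they were -0.20 and -0.36 in siblings, and -0.0095 and -0.26 in knockouts. Neuron markers summed to 1909 to 2352 CPM in 48 hpf knockouts, against 2422 to 2604 CPM in 48 hpf siblings, with 2 of 7 called lower. Fewer neuron markers were called in 7 of the 8 fits that left out 1 library, and no epidermis marker was called in 5 of them. Of 8 muscle markers 1 was lower at each stage, and edgeR called none of 8 erythroid and 7 lens markers at either. Of these, 2 lens markers at 34 hpf had an unadjusted p below 0.05, and 2 were called lower without replicate 4 of the knockouts and 1 without replicate 1 of the siblings. Markers of proliferating cells summed to 2343 to 2758 CPM in 34 hpf knockouts, against 2800.4 to 3063 CPM in 34 hpf siblings, with 1 of 9 called lower there (4 without replicate 4 of the knockouts), and to 1206 to 1762 CPM in 48 hpf knockouts, against 1539 to 1566 CPM in 48 hpf siblings. All 9 were called lower at 48 than at 34 hpf in both genotypes, against 15.7% of all genes in siblings and 12.1% in knockouts. None of the markers stood at 0 in every library. Their part in the ribosomal protein values was not tested.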

How the data were processed

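The authors deposited 1 table of raw counts per gene symbol for the 16 libraries, with no normalization. Per the labels' protocols, TRIzol was used to extract RNA from embryos and a VAHTS Universal V8 kit to make libraries. The submitters' processing notes list GRCz11 as the build, featureCounts 2.0.6 and STAR 2.7.10b, with Trim Galore 0.6.10 and FastQC 0.12.1. How strand and multiply aligned reads were treated, and which annotation was used, is not given in the sources used here.

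Of 36109 symbols, 24084 passed filterByExpr, all 83 members included. In edgeR 4.0.16 under R 4.3.3, TMM-scaled counts of all libraries entered a quasi-likelihood fit of 4 group means. Calls needed an adjusted p (Benjamini-Hochberg, all tested genes) below 0.05. The SE was the log2 fold change divided by the square root of F. Levels are CPM from TMM-scaled library sizes, and shares are of raw counts. The fit was tested on simulated counts before use. Python 3.11.15 with pandas 2.3.3 and matplotlib 3.10.9 made tables and figures.

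The members and gene lists were chosen with earlier results of these data known. Members named were the 6 with the smallest p and the 4 with the largest change among those called in each comparison, those called against the majority, the 3 highest and lowest by mean CPM, and symbols sharing a stem. Other symbols (rpl35, rpl7, rps4x, rpl11, rps16, rplp1) were chosen after their values were seen. From other lists up to 4 called genes per comparison were eligible.

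Knockout and sibling libraries of one stage share repeat numbers. Over all tested genes, deviations from the group mean correlated between same-numbered libraries with r of 0.127 to 0.350 (34 hpf) and 0.219 to 0.470 (48 hpf). Since each r exceeded 0.1, a fit with the number as a block within a stage was added, although what the numbers mark is not in the labels. The main fit had no block, so its p-values do not use this pairing. Some knockout libraries correlated best with a sibling library of another number. These were replicates 1 and 3 at 34 hpf and replicates 2 and 3 at 48 hpf. Libraries of a group differed beyond counting noise (chi-square per gene of at least 7.82).

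The fit was repeated with DESeq2 1.42.0, with 4 other scalings (size factors of DESeq2, upper quartile, plain totals, TMM leaving out the members), with 2 other filters (none, or 1 CPM in 4 libraries), on the compared libraries alone, with a replicate block, and leaving out each library. Values of some single genes are not reported here.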

Additional observations from a re-analysis of the deposited data

Results flagged for a closer look

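Single libraries stood apart from the other 3 of their group, by a gap test at the 95% level, in 10 of 136 groups of 4 examined, where chance flags about 1 in 20. All groups came from the same libraries and were not independent, so this rate is no test of the 10 flagged groups. Replicate 4 of the 34 hpf knockouts was the high library for 5 of them, rpl22l1 at 271 CPM, rpl5a at 1328 CPM, rpl9 at 6.18 CPM, rps26 at 443 CPM and rps8a at 1353 CPM. This is the library with the lowest scaling factor of its group. Replicate 1 of the 34 hpf siblings was high for rpl15 at 939.5 CPM and rpl8 at 1489 CPM. Replicate 3 of that group was high for rps3a at 1848 CPM, and replicate 2 was low for rplp0 at 2229 CPM. Replicate 2 of the 48 hpf siblings was high for rpl22l1 at 169.7 CPM.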

How the results depend on the processing

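At 34 hpf the count of ribosomal protein symbols called higher, 2 in the main analysis, was 12 with upper quartile scaling, 26 with plain library totals, 14 with DESeq2 and 1 with only the compared libraries. The shares of all genes called higher there were 5.71%, 5.58%, 5.91% and 2.16%, and 4.09% in the main analysis. At 48 hpf the 25 became 48 with plain totals and 60 with only the compared libraries. The shares of all genes there were 5.51% and 5.92%, and 4.76% in the main analysis. Between stages in knockouts the 26 called lower became 17 with plain totals, 17 without a filter on low counts, 42 with DESeq2 and 0 with only the compared libraries. Of all genes, 9.22%, 8.04%, 14.6% and 7.4% were called lower in these settings, and 12.1% in the main analysis. The cause of these changes was not tested. Without mitochondrially encoded genes in the total, the mean share of counts was 7.85% in 34 hpf knockouts and 6.61% in 34 hpf siblings. At 48 hpf it was 6.86% in knockouts and 5.34% in siblings.

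With each library left out in turn, symbols called higher ranged from 1 to 26 at 34 hpf, with 0 to 2 called lower, and from 9 to 18 at 48 hpf. Symbols called lower with stage ranged from 30 to 46 in siblings and from 6 to 53 in knockouts. Of all genes, 2.13% to 5.02% were called higher at 34 hpf in these fits, and 2.78% to 4.48% at 48 hpf. With stage, 11.8% to 13.6% of all genes were called lower in siblings and 9.18% to 13% in knockouts. The median log2 fold change at 34 hpf ranged from 0.071 without replicate 4 of the knockouts to 0.32 without their replicate 1. The median difference between the stages' effects, 0.08, ranged from -0.032 without replicate 1, where its sign turned, to 0.23 without replicate 4 of that group.

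With the replicate block, 2 symbols were called higher at 34 hpf and 21 at 48 hpf, and 49 were called lower with stage in siblings and 24 in knockouts, so that none of these 4 counts moved by over 1.5 times. The block called 4.21% of all genes higher at 34 hpf and 4.84% at 48 hpf. With stage it called 16% of all genes lower in siblings and 12% in knockouts. Besides the calls given with the results, rpl17 and rpl28 at 48 hpf and rpl4 and rpl13a with stage in knockouts lost theirs, while rps10 and rps27a at 48 hpf gained one. In the gene lists at 34 hpf, initiation factors had 1 in place of 2 called higher, mTORC1 genes 1 in place of 2 lower, and markers of proliferating cells 2 in place of 1 lower. With the block 4.21% of all genes were called higher and 5.89% lower at 34 hpf. Across stages same-numbered libraries did not all correlate above 0.1, with r of -0.26 to 0.37 in siblings and -0.19 to 0.23 in knockouts, so the numbers were not taken to pair stages.

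With 1 library left out in turn the log2 fold change of hnf4a, not called, ranged from -0.37 to 0.10 at 34 hpf and from -0.26 to 0.015 at 48 hpf, and lay above 0 without replicate 4 of the 34 hpf knockouts, without replicate 2 of the 34 hpf siblings (0.00020) and without replicate 1 of the 48 hpf knockouts.

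Counting error bears most on rps8b and rpl9, the symbols with the fewest reads, at 49 to 226 counts per library.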
